A study of Mus musculus with 33 samples.

Results

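The subject is the SR and hnRNP families of splicing factors in mouse hippocampus, measured as 86 probe sets for 29 genes out of 45101 probe sets on the array. A member is a probe set that the platform annotation pairs with 1 gene symbol only, that symbol beginning with Srsf and a digit or with Hnrnp, and whose mean signal over the 33 arrays exceeded 13. The SR genes numbered 10 with 32 probe sets, and the hnRNP genes numbered 19 with 54 probe sets. At any signal the families held 91 such probe sets, of which 5 lay at or below the limit. Those just outside it were 2 for Hnrnpab with mean signals of 12.6 and 10.8, 1 for Hnrnpc with 6.48, 1 for Hnrnpl with 5.65 and 1 for Srsf1 with 5.63. The members just inside were 1455740_at for Hnrnpa1 with 20.2, 1439095_at for Srsf11 with 21.6 and 1427816_at for Srsf2 with 24.5. A further 7 probe sets name Hnrnpa1 or Hnrnpa3 together with another gene or pseudogene and are not members.

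The 33 arrays came from 3 groups of 11 male mice on a SJL × C57BL/6J background, with 1 array per animal. Tg2576 animals were heterozygous for human APP bearing the Swedish mutation, expressed from the prion promoter, and received either vehicle or the liver X receptor agonist TO901317 at 50 mg/kg/day. Wild-type littermates received vehicle, so no wild-type animal was given the compound. The compound was given by gavage, and the vehicle held Tween 80 and sodium carboxymethylcellulose. The 2 descriptions of the study differ on the length of dosing, with 7 days in one and 5 days in the other; the mice were 20 weeks old and tissue was taken 1 hour after the last dose. Total RNA of the right hippocampus was hybridised to the MOE430 2.0 array.

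SR proteins bind short exonic sequences through RNA recognition motifs and recruit the splicing machinery through a domain rich in arginine and serine, which kinases phosphorylate. The hnRNP proteins coat nascent transcripts, and many of them oppose SR proteins at the same exons, so the balance of both families shapes which exons a neuron includes. Many genes of both families limit their own expression through exons that send the transcript to nonsense-mediated decay, and several hnRNP proteins also carry or stabilise mRNA in dendrites and axons. A 3' array of this kind reads transcript amounts at each probe set and reads neither the phosphorylation of the proteins nor the exons of their targets.

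The deposited values are linear MAS5 signals in arbitrary units, scaled so that each array has nearly the same trimmed mean. The median correlation of an array with the others ran from 0.967 in vehicle-treated Tg2576 replicate 4 to 0.980 in TO901317 replicate 7. The highest correlation between any pair was 0.987, and no pair held identical values. The neuronal markers were present at a summed signal of 13763 to 17276 in wild type, 14122 to 16957 in vehicle-treated Tg2576 and 14821 to 17005 in TO901317-treated Tg2576. The 6 marker genes of meninges and fibroblasts had a median log2 difference of 0.49 between vehicle-treated Tg2576 and wild type, with summed signals of 292 to 905 in wild type, 478 to 1278 in vehicle-treated Tg2576 and 267 to 914 after TO901317. The 7 astrocyte genes had a median of -0.18 in that contrast. Among all marker genes tested, the dentate gene Tdo2 alone passed the test, at a log2 difference of -0.77 (adjusted p = 0.00201) between vehicle-treated Tg2576 and wild type. The part of tissue composition in the members' differences was not tested.

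No SR or hnRNP probe set passed the test in any of the 3 contrasts. Each contrast was tested with limma on log2(signal + 16) over 27697 probe sets, with Benjamini-Hochberg adjustment over all of them and a limit of 0.05. Between vehicle-treated Tg2576 and wild type, 0 of 86 members were called, against 0.155% of all probe sets tested. Between TO901317 and vehicle within Tg2576 the count was also 0, against 0.137%. Between TO901317-treated Tg2576 and wild type it was 0 again, against 0.130%. In hippocampus, as in any bulk tissue, fewer cells of a type and less RNA per cell cannot be told apart.

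The arrays numbered 1 to 5 and those numbered 6 to 11 parted within the groups, in a way the labels do not explain. With the groups held in the limma fit, 21 of the 86 members differed between both ranges of numbers, or 24.4%, against 16.8% of all probe sets tested. Of these, 17 were higher in numbers 6 to 11 and 4 lower, beside 2295 higher and 2364 lower over all probe sets. The 21 members stood for 18 genes. Vehicle-treated Tg2576 replicates 3, 4 and 5, described below as low in several members, all lie in numbers 1 to 5. Among the 21, Hnrnpul1 (1451984_at) and Hnrnpa0 (1428407_at) had them as their 3 lowest arrays. The part of these 3 arrays in the differences between the ranges was not tested. The largest steps among the 5 members of smallest p were 0.38 on the log2 scale for Hnrnpr (1437526_x_at) and 0.26 for Srsf6 (1447898_s_at), while Hnrnpd (1425142_a_at) and Hnrnpdl (1424251_a_at) both stood at -0.23. Each range held 5 or 6 animals of every group. A 2-level replicate block for these ranges was added after the data were seen. Every group splits alike over the ranges, so this block could not change any log2 difference, only its error. With it 0 members were called between vehicle-treated Tg2576 and wild type, 1 for TO901317 within Tg2576 and 2 between TO901317-treated Tg2576 and wild type, beside 63, 90 and 91 in the whole table. The called members were Hnrnpa0, Srsf6 and Hnrnph1, described below with their values within each range. Within either range alone, 0 members were called in each contrast. Over all probe sets, numbers 1 to 5 gave 4 calls between vehicle-treated Tg2576 and wild type and 0 in either other contrast. Numbers 6 to 11 gave 34 there, 5 for TO901317 within Tg2576 and 8 between TO901317-treated Tg2576 and wild type. So few calls in the whole table left little room for one among the 86 members, so their count of 0 says little about them.

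At an unadjusted p under 0.05 the members numbered 12 between vehicle-treated Tg2576 and wild type, or 14.0% of the members against 9.64% of all probe sets, with 5 higher and 7 lower against 4.89% and 4.74%. The TO901317 contrast within Tg2576 gave 14 members, or 16.3% against 10.4%, with 8 higher and 6 lower against 5.60% and 4.84%. The contrast of TO901317-treated Tg2576 with wild type gave 8 members, or 9.30% against 8.12%, with 2 higher and 6 lower against 4.15% and 3.97%. An exact Wilcoxon rank-sum test with the same adjustment, added after the data were seen, also called 0 members in each contrast, while it called 21, 2 and 30 probe sets in the whole table. No member had groups that failed to overlap, whereas 0.0253%, 0.00722% and 0.0144% of all probe sets did in the 3 contrasts in that order. The contrasts share arrays: the vehicle-treated Tg2576 animals enter the first and the second, and the wild-type animals the first and the third.

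The members' median log2 difference was -0.03 between vehicle-treated Tg2576 and wild type, beside 0.00 over all probe sets. It was -0.00 for TO901317 within Tg2576, beside 0.00, and -0.01 for TO901317-treated Tg2576 against wild type, beside 0.01. Among the SR probe sets, 24 lay below 0 and 8 above between vehicle-treated Tg2576 and wild type, with a median of -0.06, while the hnRNP probe sets were even at 27 and 27 with a median of -0.01. The data bounded most members closely. The 95% confidence interval of the log2 difference reached a median of 0.15 to either side, and it lay wholly within a 1.25-fold difference in either direction for 72 members in the first contrast, 67 in the second and 73 in the third. The members' median within-group SD was 0.17 on the log2 scale, against 0.21 over all probe sets. Their median signal was also higher, at 327 against 73.7, and no comparison at matched signal was made.

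**Figure D1:**
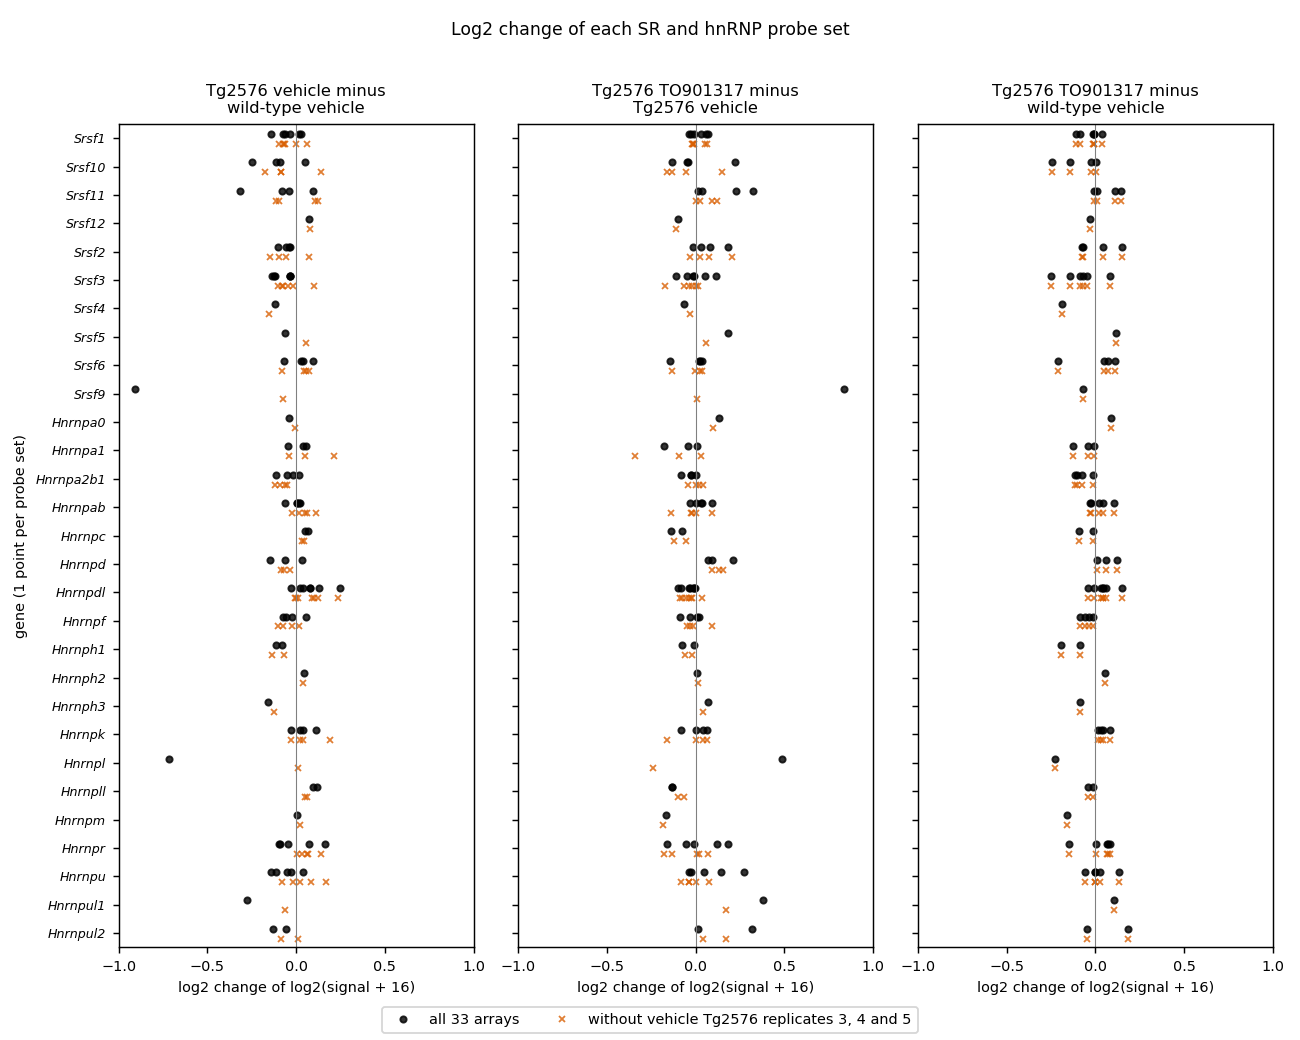
Log2 difference of log2(signal + 16) for each of the 86 probe sets, 1 point per probe set and 1 line of points per gene, in the 3 contrasts; black circles use all 33 arrays and orange crosses leave out vehicle-treated Tg2576 replicates 3, 4 and 5. Srsf9 at -0.91 and 0.84 and Hnrnpl at -0.71 and 0.48 lie far from the other genes in the first and second contrasts, and their crosses lie at -0.07, 0.01, 0.01 and -0.24.

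Srsf9 and Hnrnpl had the lowest log2 differences of the families between vehicle-treated Tg2576 and wild type, and in both 3 animals lay far below the rest. Srsf9 is an SR protein with a pair of RNA recognition motifs that can restrain the inclusion of alternative exons, and Hnrnpl binds CA-rich sequences and regulates exons and polyadenylation sites near them. The 250 bases before the annotated start of each are shown because these genes were low in the same animals. Any part of these stretches in the low values was not tested. Sequences are RefSeq's on GRCm38.p6, Srsf9 from chr5:115326927-115327176 and Hnrnpl from chr7:28810640-28810889, both on the plus strand, with each CpG in capitals.
Srsf9: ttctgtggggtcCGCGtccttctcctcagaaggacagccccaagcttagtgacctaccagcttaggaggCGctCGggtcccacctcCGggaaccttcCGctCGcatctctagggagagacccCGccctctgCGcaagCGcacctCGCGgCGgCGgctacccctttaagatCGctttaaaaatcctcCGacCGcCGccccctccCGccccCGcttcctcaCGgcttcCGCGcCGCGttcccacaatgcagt
Hnrnpl: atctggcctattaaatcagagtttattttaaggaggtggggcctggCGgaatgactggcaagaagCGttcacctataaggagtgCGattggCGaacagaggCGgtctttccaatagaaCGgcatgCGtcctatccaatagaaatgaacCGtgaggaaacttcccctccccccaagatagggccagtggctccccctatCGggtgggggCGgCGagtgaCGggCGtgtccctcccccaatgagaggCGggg
The Srsf9 stretch had 65.2% GC and 25 CpG, and the Hnrnpl stretch had 56.4% and 14.

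The Srsf9 signal (1417727_at) had its lowest, median and highest values at 336, 389 and 441 in wild type, 13.4, 342 and 408 in vehicle-treated Tg2576, and 342, 358 and 407 after TO901317. Vehicle-treated Tg2576 replicates 3, 4 and 5 gave 17.0, 13.4 and 83.1, and every other array of the study gave at least 314, so 8 of the 11 vehicle-treated animals lay among the wild-type values or just below them. The mean was 384 ± 31.0 (SD, n = 11) in wild type, 275 ± 156 in vehicle-treated Tg2576 and 365 ± 19.7 after TO901317. The log2 difference was -0.91 (SE 0.37, adjusted p = 0.413) between vehicle-treated Tg2576 and wild type and 0.84 (adjusted p = 0.412) for TO901317 within Tg2576. Without the 3 animals it was -0.07 (SE 0.05) and 0.01 (SE 0.05). The within-group SD of Srsf9 went with them from 0.87 to 0.10 on the log2 scale, from the 99.7th to the 5.5th percentile of all probe sets.

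The Hnrnpl signal (1424101_at) had its lowest, median and highest values at 79.9, 166 and 302 in wild type, 6.71, 167 and 241 in vehicle-treated Tg2576, and 72.0, 146 and 288 after TO901317. Replicates 3, 4 and 5 of vehicle-treated Tg2576 gave 6.71, 20.3 and 17.0, all under the lowest of the other 30 arrays at 72.0. The log2 difference was -0.71 (SE 0.37, adjusted p = 0.552) against wild type and 0.48 (adjusted p = 0.700) for TO901317 within Tg2576. Leaving out the 3 animals gave 0.01 and -0.24 (SE 0.25 for both). Hnrnpl still varied widely among the remaining animals, with a within-group SD of 0.54 at the 99.0th percentile.

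The same 3 animals were the 3 lowest of all 33 in 8 of the 86 members, or 9.30%, against 2.08% of all probe sets tested. Besides Srsf9 and Hnrnpl these were 2 probe sets of Hnrnpu and 1 each of Srsf2, Srsf5, Hnrnpa0 and Hnrnpul1. The lowest other array stood at 3.78 and 3.56 times the highest of the 3 in Srsf9 and Hnrnpl. That ratio was 1.14 to 1.23 in Hnrnpu and Hnrnpul1, and only 1.001 in Hnrnpa0, 1.007 in Srsf2 and 1.02 in Srsf5. They were the 3 highest in 1 member, Hnrnpll (1427144_at), against 0.563% of all probe sets. All 3 lay below 0.5 times the lowest other array in 2 members, Srsf9 and Hnrnpl, or 2.33%, against 0.184%. On the log2 scale the Gapdh control probe sets, 3' over 5', stood at 0.11, 0.08 and -0.08 in these animals and at -0.09 or less in each of the other 30. The beta-actin ratio was 1.20, 1.28 and 1.34 there and reached 1.48 in wild type. The part of RNA quality in these low values was not tested. The 3 arrays were noticed through Srsf9 and Hnrnpl themselves, so their description supports nothing further, and the values without them were added after the data were seen. Without the 3 arrays, limma called 0 members in each contrast, against 0.173%, 0.0903% and 0.148% of all probe sets. At an unadjusted p under 0.05 the members then numbered 6, 8 and 10, or 6.98%, 9.30% and 11.6%, against 10.6%, 10.4% and 8.59% of all probe sets.

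**Figure D2:**
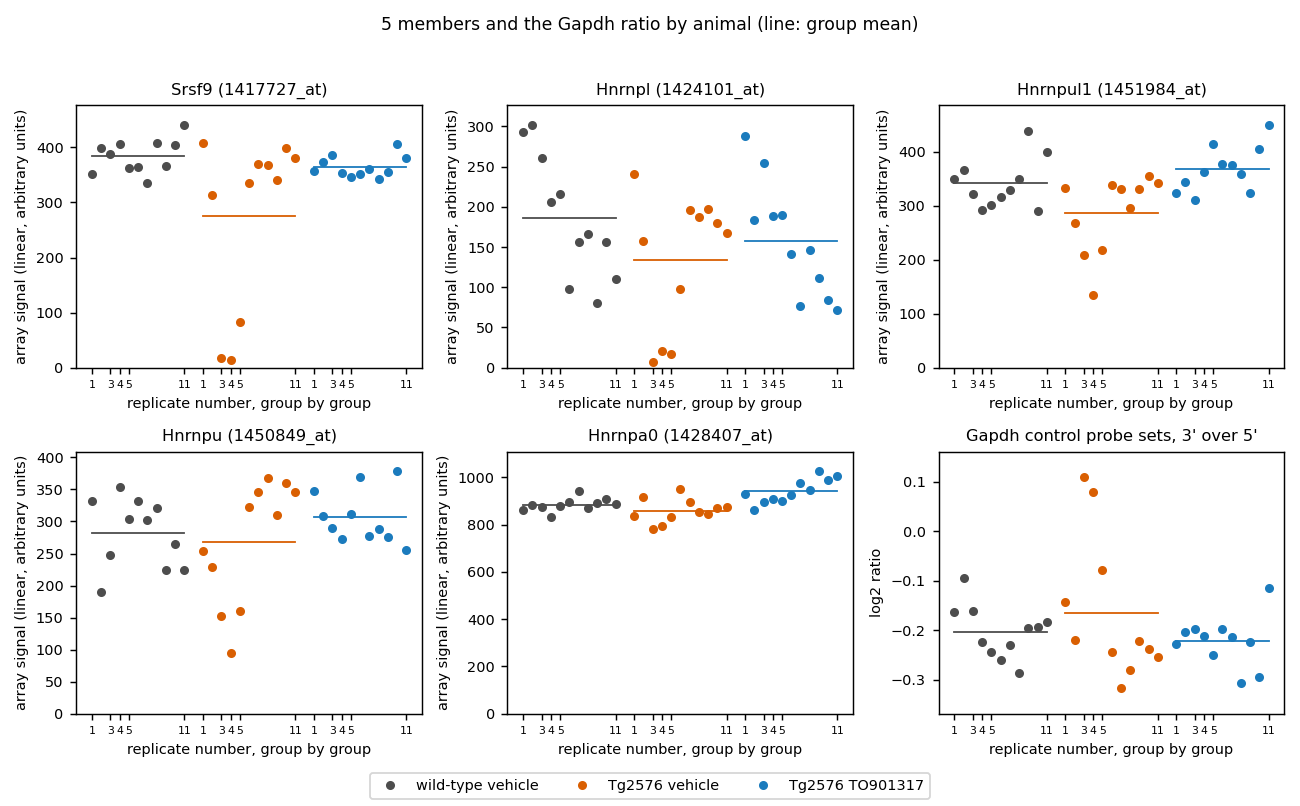
Array signal in arbitrary units for Srsf9, Hnrnpl, Hnrnpul1, Hnrnpu and Hnrnpa0 in each of the 33 animals, ordered by replicate number within each group, with the group mean as a line, and in the last panel the log2 Gapdh ratio, 3' over 5' control probe set. Vehicle-treated Tg2576 replicates 3, 4 and 5 lie lowest in every signal panel, at 13.4 to 83.1 for Srsf9, and highest in the Gapdh panel. The members shown were picked from the 8 of 86 in which these arrays are the 3 lowest, so the panels do not stand for the families. In Hnrnpa0 the highest of the 3, at 830.0, nearly meets the lowest other array at 830.6.

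**Figure D3:**
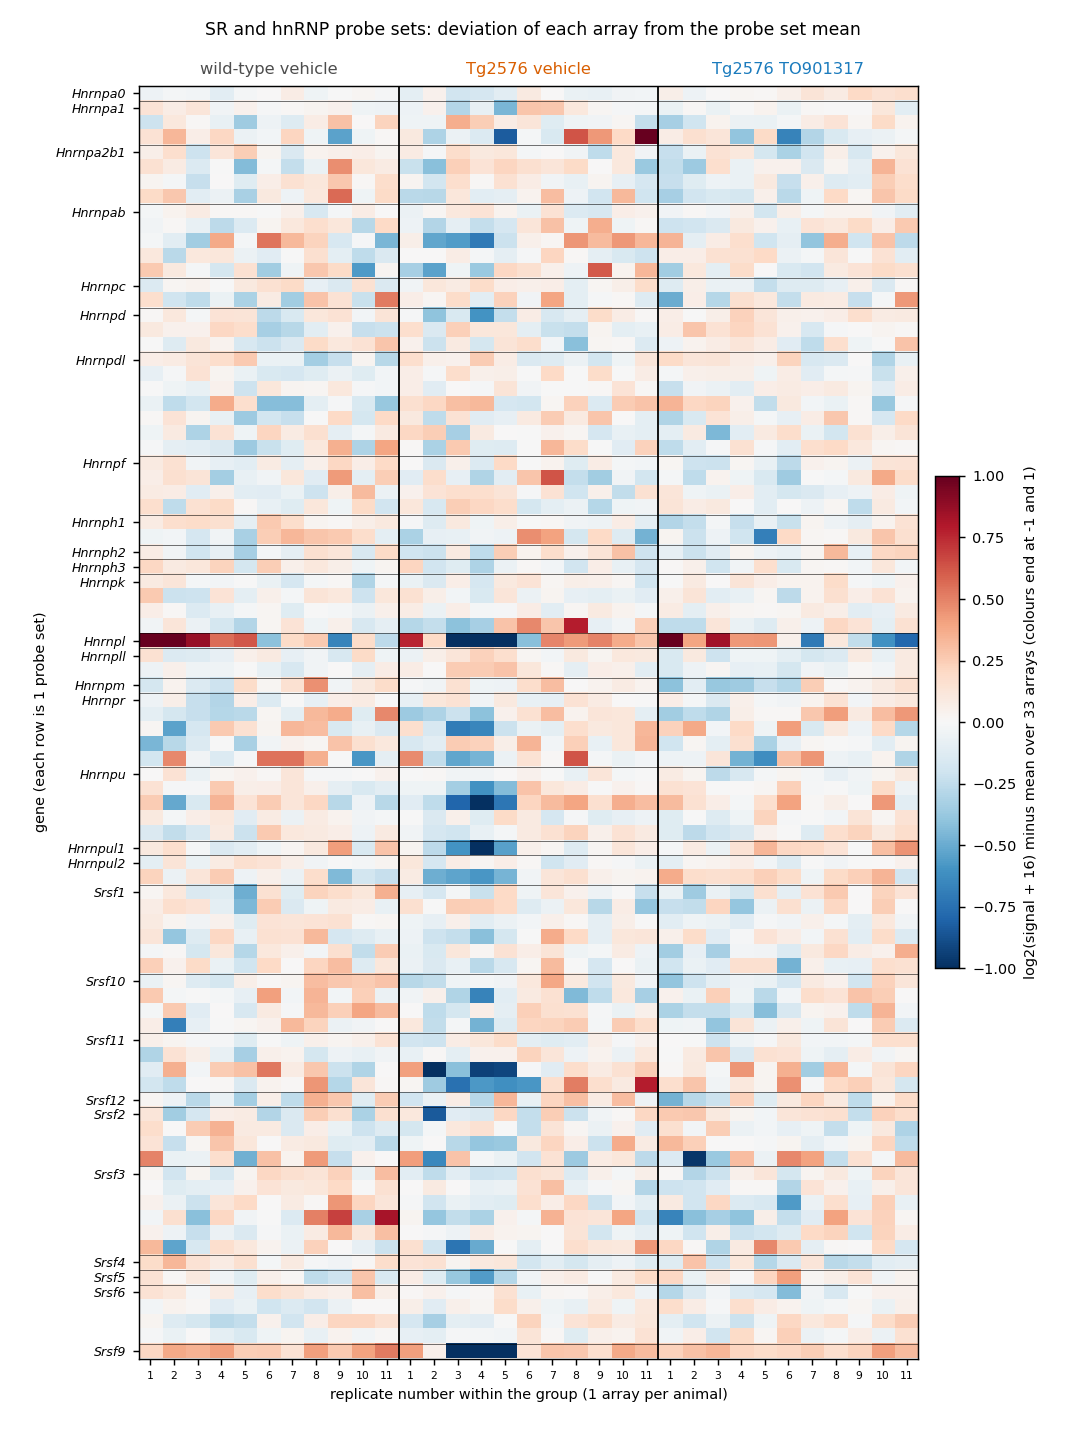
Deviation of log2(signal + 16) from the probe set's mean over 33 arrays, with 1 row per probe set grouped by gene and 1 column per animal grouped by treatment; colours end at -1 and 1. Srsf9 and Hnrnpl are dark blue in vehicle-treated Tg2576 replicates 3, 4 and 5, and most other rows show no block of colour that follows a group.

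Hnrnpul1, a relative of the nuclear scaffold protein Hnrnpu that also takes part in the repair of DNA breaks, followed the same pattern to a lesser degree. Its signal (1451984_at) ran from 290 through 329 to 438 in wild type, from 134 through 330 to 355 in vehicle-treated Tg2576 and from 311 through 361 to 449 after TO901317. The vehicle-treated replicates 3, 4 and 5 gave 209, 134 and 218, and the groups overlapped in the rest of their ranges. The log2 difference was -0.28 (adjusted p = 0.400) against wild type and 0.38 (adjusted p = 0.178) for TO901317 within Tg2576. Without the 3 animals it was -0.07 and 0.17 (adjusted p = 0.389).

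Hnrnpu organises chromatin and binds nascent RNA, and its 5 probe sets did not share a direction. The brightest (1423050_s_at) had means of 1291 ± 55.1, 1267 ± 44.3 and 1244 ± 89.9 in wild type, vehicle-treated Tg2576 and TO901317-treated Tg2576, and its log2 differences were -0.03, -0.03 and -0.06. For 1450849_at the signal ran from 189 through 302 to 353 in wild type, from 95.02 through 310 to 368 in vehicle-treated Tg2576 and from 255 through 290 to 379 after TO901317. Replicates 3, 4 and 5 of vehicle-treated Tg2576 were the lowest at 153, 95.02 and 161. Its log2 difference against wild type was -0.14 with them and 0.17 without them, and neither passed the test (adjusted p = 0.842 and 0.574). The relative Hnrnpul2 had a second probe set (1415765_at) at 127 ± 20.3, 116 ± 25.7 and 146 ± 17.0, a log2 difference of 0.31 for TO901317 within Tg2576 (adjusted p = 0.193) and of 0.17 without the 3 animals (adjusted p = 0.497). Its brightest probe set (1434551_at) differed by 0.01 in that contrast.

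Among the SR genes with a pair of RNA recognition motifs, Srsf1 is the founding member and acts in constitutive and alternative splicing. Its brightest probe set (1434972_x_at) ran from 430 through 657 to 784 in wild type, from 517 through 591 to 702 in vehicle-treated Tg2576 and from 472 through 612 to 732 after TO901317. The 3 ranges overlapped almost entirely, with log2 differences of -0.06, 0.06 and -0.01. The other 5 probe sets of Srsf1 lay between -0.14 and 0.03 against wild type in vehicle-treated animals. Another (1453722_s_at) had means of 599 ± 35.8, 568 ± 23.6 and 563 ± 27.1 and a log2 difference of -0.09 between TO901317-treated Tg2576 and wild type (adjusted p = 0.511).

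Srsf5, first described in rat liver as a growth-response gene, had a single probe set (1423130_a_at). It ran from 1899 through 2285 to 2751 in wild type, from 1536 through 2269 to 2589 in vehicle-treated Tg2576 and from 2169 through 2369 to 3026 after TO901317. Its log2 difference for TO901317 within Tg2576 was 0.18 (adjusted p = 0.366), and without vehicle-treated replicates 3, 4 and 5, its 3 lowest arrays, it was 0.06. Against wild type the TO901317-treated animals differed by 0.11 (adjusted p = 0.752). Srsf4, which resembles Srsf6 and carries a long arginine and serine domain, had means of 375 ± 30.9, 344 ± 32.3 and 329 ± 46.3. Its log2 difference between TO901317-treated Tg2576 and wild type was -0.19 (SE 0.06, adjusted p = 0.321).

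Srsf6, a regulator of alternative exons that include one of Mapt, came nearest to the limit of all members. Its probe sets differed in direction, and any part of the sequence before its start in that was not tested. The 250 bases before its start are shown with each CpG in capitals. They lie at chr2:162931258-162931507 on the plus strand of GRCm38.p6 in RefSeq.
Srsf6: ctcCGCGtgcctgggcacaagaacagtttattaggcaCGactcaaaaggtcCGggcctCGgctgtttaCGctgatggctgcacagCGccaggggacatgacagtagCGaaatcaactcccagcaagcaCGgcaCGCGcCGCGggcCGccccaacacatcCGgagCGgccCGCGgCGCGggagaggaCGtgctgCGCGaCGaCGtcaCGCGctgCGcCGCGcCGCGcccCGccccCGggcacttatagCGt
This stretch had 68.4% GC and 35 CpG. The brightest Srsf6 probe set (1448454_at) ran from 526 through 593 to 693 in wild type, from 529 through 565 to 623 in vehicle-treated Tg2576 and from 410 through 506 to 578 after TO901317. The median TO901317-treated animal lay below the lowest animal of either other group, although the ranges overlapped. Means were 599 ± 43.4, 570 ± 26.6 and 516 ± 51.7. The log2 difference between TO901317-treated Tg2576 and wild type was -0.21 (SE 0.05, 95% interval -0.31 to -0.11, adjusted p = 0.0537). It was -0.14 (adjusted p = 0.247) for TO901317 within Tg2576 and -0.07 (adjusted p = 0.698) for vehicle-treated Tg2576 against wild type.

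The other 3 probe sets of Srsf6 did not share that direction. For 1416721_s_at the signal ran from 426 through 471 to 502 in wild type, from 453 through 510 to 561 in vehicle-treated Tg2576 and from 468 through 504 to 557 after TO901317. Both transgenic groups thus had medians above the highest wild-type animal, and the log2 difference between TO901317-treated Tg2576 and wild type was 0.11 (SE 0.04, adjusted p = 0.404). For 1416720_at it was 0.07 and for 1447898_s_at 0.05. Taken as a ratio to 1448454_at within each array, 1416721_s_at gave a log2 difference of 0.32 (SE 0.07, adjusted p = 0.0647 over 10563 such ratios). The same ratio was 0.28 (adjusted p = 0.246) for 1416720_at and 0.26 (adjusted p = 0.480) for 1447898_s_at, all 3 sharing the same denominator. Which Srsf6 transcripts each probe set reads was not analysed here.

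The Srsf6 result sat at the limit and crossed it under some other settings. Of 16 alternatives it passed in 4 and fell short in 12, with adjusted p up to 0.290. Of 33 fits without 1 array it passed in 3 and fell short in 30. The filter at 50 and the use of 1 probe set per gene left the log2 difference unchanged and tested fewer probe sets. The adjusted p of 1448454_at between TO901317-treated Tg2576 and wild type was 0.0391 with the 2-level replicate block, 0.0367 with a mean signal above 50, 0.0372 with 1 probe set per gene and 0.0479 after quantile normalization. The log2 difference was -0.20 within numbers 1 to 5 (adjusted p = 0.628) and -0.22 within numbers 6 to 11 (adjusted p = 0.437). The adjusted p was 0.0332 without wild-type replicate 5, 0.0405 without TO901317 replicate 10 and 0.0366 without TO901317 replicate 11. The ratio of 1416721_s_at passed with a mean signal above 50, with log2(signal + 64), and without TO901317 replicate 10 or 11. Hnrnph1, which binds runs of guanine in exons and introns, also lay near the limit in its brighter probe set (1415872_at). It ran from 1176 through 1341 to 1501 in wild type, from 1145 through 1242 to 1341 in vehicle-treated Tg2576 and from 1021 through 1185 to 1387 after TO901317, with broad overlap. The log2 difference between TO901317-treated Tg2576 and wild type was -0.20 (SE 0.05, adjusted p = 0.0720), and the adjusted p was 0.0450 with a mean signal above 50 and 0.0454 with 1 probe set per gene. It was 0.0446 with the 2-level replicate block, 0.0371 without wild-type replicate 5 and 0.0253 without TO901317 replicate 11. Hnrnph1 fell short of the limit in 13 of the 16 alternatives and in 31 of the 33 fits without 1 array. Within numbers 1 to 5 the log2 difference was -0.27 (adjusted p = 0.418), and within numbers 6 to 11 it was -0.13 (adjusted p = 0.641). Its dimmer probe set (1437267_x_at) differed by -0.09.

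**Figure D4:**
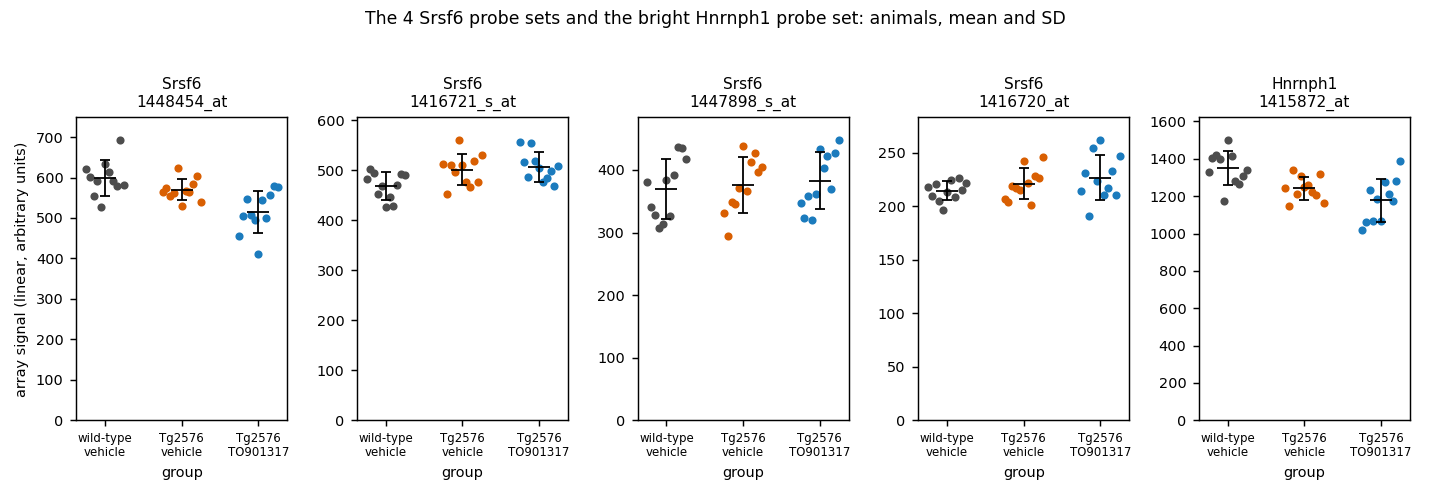
Array signal in arbitrary units of the 4 Srsf6 probe sets and of Hnrnph1 1415872_at, 1 point per animal in 3 groups of 11, with the group mean and SD as a black bar; each axis starts at 0. In the Srsf6 probe set 1448454_at the means step from 599 through 570 to 516, and in 1416721_s_at from 469 through 501 to 507.

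The SR proteins with 1 recognition motif had no probe set past the limit. Srsf2 binds exonic enhancers and marks nuclear speckles. Its brightest probe set (1427504_s_at) ran from 508 through 681 to 772 in wild type, from 356 through 632 to 773 in vehicle-treated Tg2576 and from 548 through 719 to 788 after TO901317. Only vehicle-treated replicate 2, at 356, stood below all other animals. The log2 difference was 0.18 (adjusted p = 0.498) for TO901317 within Tg2576 and 0.15 (adjusted p = 0.746) against wild type, and the first was 0.11 (adjusted p = 0.700) without replicate 2. Srsf3, the smallest SR protein, which also links splicing to mRNA export, had means of 659 ± 74.2, 603 ± 60.7 and 626 ± 69.5 in its brightest probe set (1416150_a_at). All 6 probe sets of Srsf3 lay between -0.14 and -0.03 in vehicle-treated Tg2576 against wild type, and the smallest adjusted p among them was 0.551. Without replicates 3, 4 and 5 they lay between -0.10 and 0.10, with 1 above 0.

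Srsf10 acts as a general splicing repressor when it is dephosphorylated, as after heat shock. Its 4 probe sets differed by -0.25 to 0.05 between vehicle-treated Tg2576 and wild type. The lowest of them (1418526_at) had means of 95.8 ± 14.5, 78.7 ± 16.5 and 93.6 ± 12.4, with log2 differences of -0.25 (adjusted p = 0.295) against wild type and 0.22 (adjusted p = 0.342) for TO901317 within Tg2576. Another (1449121_at) had means of 86.8 ± 13.7, 78.8 ± 9.66 and 70.8 ± 13.6 and a difference of -0.25 (adjusted p = 0.301) between TO901317-treated Tg2576 and wild type. Srsf11, an SR protein of nuclear speckles, had means of 810 ± 38.2, 790 ± 72.6 and 808 ± 60.8 in its brightest probe set (1452371_at). A dimmer probe set (1430077_at) differed by -0.32 (adjusted p = 0.476) in vehicle-treated Tg2576, and by -0.11 without replicates 3, 4 and 5. Srsf12, an atypical relative that can oppose other SR proteins, had means of 71.0 ± 14.2, 75.2 ± 13.2 and 69.2 ± 13.5 and differences of 0.07, -0.10 and -0.03.

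Among the hnRNP A and B genes, Hnrnpa0 gave the smallest p of any member for TO901317 within Tg2576. This protein binds AU-rich elements and stabilises mRNAs. Its signal (1428407_at) ran from 831 through 881 to 943 in wild type, from 782 through 852 to 951 in vehicle-treated Tg2576 and from 863 through 929 to 1027 after TO901317. The log2 difference for TO901317 within Tg2576 was 0.13 (SE 0.04, adjusted p = 0.141) and was 0.09 (adjusted p = 0.345) without replicates 3, 4 and 5, its 3 lowest arrays. With the 2-level replicate block the adjusted p was 0.0456, and the difference was 0.11 within numbers 1 to 5 and 0.15 within numbers 6 to 11 (adjusted p = 0.339 and 0.270). Its animals differed little, with a within-group SD of 0.07 on the log2 scale at the 0.3rd percentile of all probe sets. Hnrnpa1, which favours the skipping of many exons, had means of 329 ± 15.1, 322 ± 48.6 and 320 ± 13.9 in its brightest member (1455305_x_at). Hnrnpa2b1, which carries mRNAs such as that of myelin basic protein in processes, had means of 1025 ± 90.2, 1010 ± 78.9 and 956 ± 107 (1420365_a_at), and a log2 difference of -0.10 (adjusted p = 0.687) between TO901317-treated Tg2576 and wild type. All 4 Hnrnpa2b1 probe sets lay below 0 in that contrast, from -0.11 to -0.01. The 5 Hnrnpab probe sets lay between -0.06 and 0.11 in all 3 contrasts.

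Hnrnpd, also known as AUF1, promotes the decay of mRNAs with AU-rich elements, and Hnrnpdl is its close relative. The brightest Hnrnpd probe set (1457568_at) ran from 230 through 302 to 310 in wild type, from 179 through 261 to 319 in vehicle-treated Tg2576 and from 278 through 293 to 330 after TO901317. The treated group was the narrowest, and its lowest animal lay above the vehicle-treated median. Its log2 difference was -0.15 (adjusted p = 0.468) against wild type in vehicle-treated Tg2576 and 0.21 (adjusted p = 0.229) for TO901317 within Tg2576, and -0.07 and 0.13 without the 3 animals. Hnrnpdl had 7 probe sets, and 1420093_s_at gave the smallest p of any member between vehicle-treated Tg2576 and wild type. It ran from 607 through 654 to 762 in wild type, from 682 through 717 to 790 in vehicle-treated Tg2576 and from 586 through 679 to 721 after TO901317. The lowest vehicle-treated animal lay above the wild-type median, and the log2 difference was 0.13 (SE 0.04, adjusted p = 0.224). Another Hnrnpdl probe set (1449039_a_at) had means of 418 ± 78.3, 497 ± 67.6 and 463 ± 67.0 and a difference of 0.25 (SE 0.09, adjusted p = 0.301). The brightest (1424251_a_at), at 2308 ± 305, 2357 ± 229 and 2354 ± 264, differed by 0.04.

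Hnrnpc binds uridine tracts in nascent transcripts and keeps cryptic exons out of mRNA. Its brighter probe set (1460240_a_at) ran from 1194 through 1345 to 1509 in wild type, from 1234 through 1388 to 1509 in vehicle-treated Tg2576 and from 1121 through 1251 to 1381 after TO901317. The log2 difference for TO901317 within Tg2576 was -0.14 (SE 0.05, adjusted p = 0.229). Hnrnpk, a poly-C binding protein that acts in transcription, splicing and translation, had means of 1732 ± 135, 1762 ± 140 and 1834 ± 85.5 (1460547_a_at). Its log2 differences were 0.02, 0.06 and 0.08 in the 3 contrasts. Hnrnph3 and Hnrnph2, like Hnrnph1, bind guanine runs. Hnrnph3 had means of 298 ± 26.0, 265 ± 28.6 and 279 ± 21.1 and a difference of -0.16 (SE 0.06, adjusted p = 0.294) in vehicle-treated Tg2576 against wild type, while Hnrnph2 differed by 0.05. The 4 probe sets of Hnrnpf, from the same group, lay between -0.09 and 0.06 in all 3 contrasts.

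Hnrnpll, a relative of Hnrnpl known for switching Ptprc exons in activated T cells, had 2 probe sets with the same direction. The first (1425255_s_at) had means of 483 ± 42.0, 516 ± 30.4 and 469 ± 37.2, and the second (1427144_at) 447 ± 20.5, 488 ± 46.5 and 442 ± 24.0. For TO901317 within Tg2576 their log2 differences were -0.14 (adjusted p = 0.277) and -0.13 (adjusted p = 0.244). Vehicle-treated replicates 3, 4 and 5 were the highest of all animals in the second, at 548, 549 and 560, and without them the differences were -0.10 and -0.07. Hnrnpm, which opposes exon definition through GU-rich motifs, had means of 206 ± 30.7, 206 ± 17.7 and 183 ± 32.4 and a difference of -0.17 (adjusted p = 0.433) for TO901317 within Tg2576. Hnrnpr, which interacts with Smn and binds actin mRNA in motor axons, had means of 499 ± 44.2, 526 ± 34.4 and 523 ± 29.5 (1427129_a_at) and a difference of 0.08 between vehicle-treated Tg2576 and wild type.

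Probe sets of 1 gene often differed in sign, though most differences were near 0. The same share over all genes with several probe sets was not computed, so this is not shown to be particular to the members. Of the 19 genes with 2 or more members, all probe sets shared a sign in 6 between vehicle-treated Tg2576 and wild type, in 8 for TO901317 within Tg2576 and in 8 between TO901317-treated Tg2576 and wild type. In the first contrast these were Hnrnpc and Hnrnpll above 0 and Srsf2, Srsf3, Hnrnph1 and Hnrnpul2 below it. Without vehicle-treated replicates 3, 4 and 5 they were Hnrnpc, Hnrnpll and Hnrnpr above 0 and Hnrnpa2b1, Hnrnpd and Hnrnph1 below it. As ratios to the brightest probe set of the gene within each array, 0 of 57 members were called in each contrast by limma, against 0.0189%, 0.00947% and 0.0189% of 10563 ratios. At an unadjusted p under 0.05 they numbered 2, 6 and 4, or 3.51%, 10.5% and 7.02%, against 5.87%, 7.06% and 5.49% of all ratios. Besides the Srsf6 ratios, the smallest p values were those of Hnrnpdl 1449039_a_at at 0.21 (adjusted p = 0.763) in the first contrast and Hnrnpul2 1415765_at at 0.30 (adjusted p = 0.596) in the second. Hnrnpd 1425142_a_at at 0.18 (adjusted p = 0.847) and Srsf11 1427269_at at 0.14 (adjusted p = 0.874) followed in the first, and Srsf10 1418526_at at 0.27 (adjusted p = 0.653) in the second.

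The sequences upstream of these genes were rich in CpG. RefSeq starts were matched for 27 of the 29 genes, giving 39 starts. The 250 bases upstream had a median GC content of 68.0% and 23 CpG, against 52.4% and 6 over 32851 mouse starts. On either strand, the letters TATAAA occurred in 7.69% of the members' starts and 12.4% of all, CACGTG in 5.13% and 6.02%, and CCGGAAG, a core bound by ETS factors, in 20.5% and 6.91%. The 8 CCGGAAG starts belonged to 5 genes, Hnrnpd, Hnrnpf, Srsf4, Srsf5 and Srsf11, so some genes count more than once. CCGGAAG holds a CpG, and the shares were not matched for base composition. TGACGTCA, the cyclic AMP response element, occurred in 0 of the members' starts and 1.55% of all. No motif contains another.

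Genes that work beside the 2 families were examined through 9 lists holding 170 genes, of which 155 were tested with 1 probe set each. None was called in any contrast by limma, while 26, 23 and 22 of 12971 genes were. At an unadjusted p under 0.05, 4 were higher and 6 lower between vehicle-treated Tg2576 and wild type, 9 higher and 11 lower for TO901317 within Tg2576, and 4 higher and 6 lower between TO901317-treated Tg2576 and wild type. These are 6.45%, 12.9% and 6.45% of the listed genes, against 11.4%, 11.3% and 9.03% of all genes. The median log2 difference of these genes was -0.00, -0.00 and -0.01, beside 0.01, -0.01 and -0.00 over 12971 genes.

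In the core machinery, the 7 U1 snRNP genes, the 17 genes of U2 snRNP and the branch point, the 23 of the tri-snRNP and catalytic core and the 12 Sm and LSm genes held no gene past the limit. Between vehicle-treated Tg2576 and wild type their smallest p values belonged to Snrnp70 at -0.15, Rbm17 at 0.08, Prpf31 at 0.11 and Lsm8 at 0.12, with adjusted p from 0.437 to 0.667. For TO901317 within Tg2576 they belonged to Snrnp70 at 0.15, Sf3b3 at -0.13, Plrg1 at -0.12 and Lsm8 at -0.14, with adjusted p from 0.317 to 0.543. Between TO901317-treated Tg2576 and wild type they were Luc7l at -0.04, Sf3b3 at -0.09, Txnl4a at 0.19 and Snrpn at 0.18, with adjusted p from 0.321 to 0.858.

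Among the 17 genes for SR protein kinases, phosphatases and nuclear import, Tnpo2, a nuclear import receptor, resembled Srsf9. Its mean signal was 254 in wild type, 191 in vehicle-treated Tg2576 and 237 after TO901317, a log2 difference of -0.81 (adjusted p = 0.457) that was -0.01 without vehicle-treated replicates 3, 4 and 5. Ppp1r8, a nuclear inhibitor of protein phosphatase 1, had means of 269, 291 and 242 and a difference of -0.25 (adjusted p = 0.0841) for TO901317 within Tg2576. Without those 3 animals the difference was -0.32 (limma, adjusted p = 0.0124), the 1 gene of the 9 lists under the limit there. Those arrays were picked after the data were seen, and without them the groups are uneven over the number ranges. This value is therefore not taken as a call. Among the 24 hnRNP-like proteins under other names, Tardbp, the RNA-binding protein TDP-43, had means of 354, 380 and 340 and a difference of -0.16 (adjusted p = 0.0820) in the same contrast. Syncrip, a relative of Hnrnpr, differed by 0.12 (adjusted p = 0.319) between vehicle-treated Tg2576 and wild type, and the cold-inducible Cirbp by 0.35 (adjusted p = 0.183) between TO901317-treated Tg2576 and wild type.

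The remaining lists gave nothing past the limit. Among the 25 neuronal splicing regulators, Qk, which governs splicing in glia, had means of 765, 645 and 699 and a difference of -0.24 (adjusted p = 0.179) between vehicle-treated Tg2576 and wild type, in which the astrocyte markers had a median of -0.18 and the oligodendrocyte markers of -0.18. Mbnl2 differed by 0.12 (adjusted p = 0.384) for TO901317 within Tg2576. Of the 21 SR-related and exon junction genes, Acin1 differed by -0.20 (adjusted p = 0.292) in the first contrast, Pnn by 0.11 (adjusted p = 0.427) in the second and Tra2a by -0.28 (adjusted p = 0.328) in the third. Of the 9 genes of nonsense-mediated decay, Upf1 differed by -0.19 (adjusted p = 0.437), Smg9 by 0.14 (adjusted p = 0.384) and Smg1 by -0.10 (adjusted p = 0.700) in the 3 contrasts in that order.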

How the data were processed

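Hippocampal RNA of 33 mice was measured on 1-colour Affymetrix arrays. The values used are intensities as deposited by the authors, linear MAS5 signals per the submitters' processing notes; which version of MAS5 was run is not given in the sources used here. The trimmed mean of every array (2% left out at each end) was close to 100, so arrays were scaled by a common factor and their distributions were not equalised. The scanner data were not used, probe-level background can therefore not be examined, and precision is limited by the number of arrays.

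Probe sets were named by the platform annotation, which pairs 34945 of them with 1 gene, 932 with several and 9160 with none; 64 controls were left out. The signals were taken to log2(signal + 16) for the 27697 probe sets with a mean above 13 and fitted in R 4.3.3 with limma 3.58.1 (lmFit with 3 group means, eBayes with trend and robust), with Benjamini-Hochberg adjustment over all of them. Ratios within a gene subtract the brightest probe set and were fitted without trend over 10563 ratios. The pseudocount of 16 understates changes of dim probe sets. Levels of different probe sets were not compared, since probes differ in binding. Both fits were tested on simulated data.

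Groups and replicate numbers came from the sample titles, and the animals are biological replicates by those titles. The median correlation of same-numbered animals' deviations from their group means was 0.06, 0.10 and 0.07 in the 3 group pairs, and it exceeded 0.1 in 2, 5 and 4 of 11. The numbers were therefore not used for pairing, but numbers 1 to 5 and 6 to 11 parted in many probe sets, and a block of those ranges was tried. Genes with values in the text are, per contrast, the 5 highest and 5 lowest log2 differences among the genes' brightest probe sets, the 4 ratios of smallest p, the 4 genes of brightest and 4 of dimmest signal, a set of much-studied members, and the gene of smallest p in each of 9 lists of splicing genes; others are named for their smallest p or for the 3 arrays that stand apart, after their values were seen. Members and lists were chosen with earlier results of these data known. Alternatives changed the pseudocount, filter, normalization, variance model, arrays in the fit, RNA quality covariate, test, probe set rule and ratio reference, and left out each array in turn.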

Additional observations from a re-analysis of the deposited data

How the results depend on the processing

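With another setting, 0 member probe sets remained the count in each contrast except as follows. With the beta-actin 3' to 5' ratio as a covariate the count was 1 between vehicle-treated Tg2576 and wild type (Hnrnpll 1427144_at, adjusted p = 0.0465) and 1 for TO901317 within Tg2576 (Hnrnpul2 1415765_at, adjusted p = 0.0427), while the counts over the whole table went from 43 to 140 and from 38 to 124. With the 2-level replicate block it was 1 for TO901317 within Tg2576 (Hnrnpa0) and 2 between TO901317-treated Tg2576 and wild type (Srsf6 1448454_at and Hnrnph1 1415872_at). Between TO901317-treated Tg2576 and wild type it was 2 with a mean signal above 50, 2 with 1 probe set per gene and 1 after quantile normalization, in each case Srsf6 1448454_at alone or with Hnrnph1 1415872_at; the first of these settings tested fewer probe sets and called 61 in the table against 36, and quantile normalization called 56. Leaving out 1 array gave 0 to 2 members there, the higher counts without wild-type replicate 5 or TO901317 replicate 11 (2) and TO901317 replicate 10 (1). Over the 16 alternatives other than leaving out 1 array, the adjusted p ran from 0.0367 to 0.290 for Srsf6 and from 0.0446 to 0.322 for Hnrnph1. Ratios called in that contrast were 1 with log2(signal + 64) and 1 with a mean signal above 50, and 0 to 1 when leaving out 1 array, always Srsf6 1416721_s_at. Hnrnpl changed sign without vehicle-treated replicates 3, 4 and 5. It went to 0.010 between vehicle-treated Tg2576 and wild type and to -0.24 for TO901317 within Tg2576. The 3 low arrays are the difference between both fits, and leaving them out also made the groups uneven over the number ranges. The replicate block of all 11 numbers gave 0 called members and 0 called ratios in each contrast, as in the main fit. Its member medians of -0.03, -0.00 and -0.01 could not differ from the main fit, since each group has every number once.

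The 42 named differences and ratios were recomputed under every alternative. Of the values, 2040 kept direction and side of the limit, 16 passed it and 2 changed direction. None was called in the main fit, so none could lose a call. The 2040 include settings that could call little or nothing, so this tally does not measure robustness. In the whole table the count between vehicle-treated Tg2576 and wild type was 25 with the arrays of those 2 groups alone and 25 without wild-type replicate 3. For TO901317 within Tg2576 it was 25 without vehicle-treated replicates 3, 4 and 5, 9 without 3 and 4, and as low as 14 without 1 array. Against wild type the TO901317-treated animals gave 59 with the Gapdh ratio as a covariate, and 55 and 56 without wild-type replicate 5 and TO901317 replicate 11. The planned rank-sum test used a normal approximation and called 0 in the table, but its smallest possible p cannot pass the adjustment, so it says nothing about the members; the exact test called 21, 2 and 30. The causes of these shifts were not tested. Dim members near a signal of 20 lie closest to background and carry the least.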

Other observations

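The Hnrnpl probe set 1424101_at stood higher in replicates 1 to 5 in both groups without low arrays, a pattern noticed in the values. In wild type, replicates 1 to 5 lay between 206 and 302 and replicates 6 to 11 between 79.9 and 166. After TO901317, replicates 1 to 5 lay between 183 and 288 and replicates 6 to 11 between 72.0 and 146. Vehicle-treated Tg2576 did not follow that order, since replicates 1 to 5 gave 241, 157, 6.71, 20.3 and 17.0 and replicates 6 to 11 lay between 97.2 and 197. The sources used here give no meaning to the numbers.

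Vehicle-treated Tg2576 replicate 4 was the lowest of all 33 arrays in 13 of the 86 members, or 15.1%, against 6.38% of all probe sets tested. Wild-type replicate 5 and TO901317 replicate 1 followed with 9 members each, or 10.5%, against 4.72% and 3.13%. Vehicle-treated replicate 2 had a median member deviation of -0.14 on the log2 scale, with a Gapdh ratio of -0.22 inside the range of the other animals.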
